A study of Mus musculus with 9 samples.

Results

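The glutathione transferases examined here were 10 genes of the mouse hippocampus: the mu class members Gstm1, Gstm2, Gstm3, Gstm4, Gstm5, Gstm6 and Gstm7, the pi class member Gstp1, the alpha class member Gsta4 and the omega class member Gsto1. They were found by gene symbol among 19505 named genes on the array. The set was chosen by family name with earlier results of these arrays in view, among them the lower Gstm3 signal in Old D than in Old mice. The values of that contrast, and its counts past the study's threshold, are therefore given as a description and are no test of these genes. All 10 genes were measured in Young and Old D mice, and 7 of them, all of the Gstm genes, were also measured in Old mice.

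The hippocampus of 9 male C57BL6 mice (substrain C57BL/6NCrSlc) was profiled on a whole-transcript expression array, with 1 array per mouse and 3 mice in each group, and none of the mice carried a transgene or received a drug. The Young group (p1) consisted of mice 7, 19 and 20 at 11 weeks of age with normal cognition. The Old group (p2) consisted of mice 3, 8 and 18 at 47 weeks of age with normal cognition. The Old D group (p3) consisted of mice 2, 6 and 11 at 47 weeks of age, and the D was read as cognitive decline, which the sample labels do not spell out. Adult mice had been assigned by their scores in the Y-maze and the open field, 2 behavioral tests of working memory and of exploration and anxiety, so Old and Old D share age, sex and strain and differ in behavior. The values are log2 signals, in which a difference of 1 is a doubling, and the level of one probe set cannot be set against that of another.

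Glutathione transferases are enzymes that join glutathione, the main small thiol of the cell, to reactive electrophiles, including the aldehydes that arise when membrane lipids are oxidized. The classes differ in their preferred substrates, and in the brain the mu class enzymes are mainly found in glia while alpha and pi class enzymes are also present. Many of their genes are targets of Nrf2, a transcription factor that binds the antioxidant response element in promoters under oxidative stress. In the mouse the mu class genes lie side by side on chromosome 3. In the RefSeq annotation of GRCm38.p6 their order was Gstm5, Gstm7, Gstm6, Gstm3, Gstm2, Gstm1 and Gstm4, with the pseudogenes Gm9515, Gm12497 and Gm12502 between them, and Gstp1 and Gsto1 were on chromosome 19. These copies are related in sequence, so a probe set for one may also read another. This was not tested.

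The arrays were alike in overall signal. Over the 6291 probe sets measured in every mouse the correlation between arrays was 0.990 to 0.995. In the Old columns, 15915 of 22206 values were a straight line on the row number rather than measurements and were treated as missing, which removed Gstp1, Gsta4 and Gsto1 from the Old group. Young mouse 19 and Old D mouse 11 stood apart by choroid plexus transcripts. Ttr, which encodes transthyretin and is abundant in choroid plexus, was 12.92, 19.05 and 14.67 in Young mice 7, 19 and 20, and 9.74, 10.41 and 19.19 in Old D mice 2, 6 and 11. The summed level of 12 choroid plexus genes was 13.09 to 19.17 in Young and 10.71 to 19.28 in Old D mice. A summed level is the log2 of the genes' signals added on the scale without logs. Probe sets with a high signal weigh most in it. Rgs16, a thalamic marker, was 10.05 in Old D mouse 11 and 6.27 to 7.16 in the other mice. Since whole tissue was measured, fewer cells of a type and less RNA per cell cannot be told apart.

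Gstm3, a mu class enzyme, was the member with the lowest mean difference between adult mice with and without decline. Its log2 signal was 7.73, 7.78 and 7.79 in Old mice 3, 8 and 18, and 7.42, 6.98 and 6.86 in Old D mice 2, 6 and 11. In Young mice 7, 19 and 20 it was 7.53, 7.21 and 7.58. All Old mice lay above all Old D mice and above all Young mice, while the ranges of Old D and Young overlapped. The mean was 7.77 ± 0.03 (SD, n = 3) in Old, 7.09 ± 0.29 in Old D and 7.44 ± 0.20 in Young mice. The difference of Old D from Old was -0.68 with a standard error of 0.17, a signal 1.60-fold lower. Without Old D mouse 11, the Old D mouse with high choroid plexus and thalamic genes, this difference was -0.57, and Gstm3 was then short of the threshold used by the study. Young mouse 19, the other mouse with high choroid plexus genes, had the lowest Gstm3 signal of its group. The part of this tissue in the Gstm3 difference was not tested.

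Against Young mice, the Gstm3 difference of Old D was -0.35 (standard error 0.17, 95% confidence interval -0.74 to 0.03), with an unadjusted p of 0.0685 and an adjusted p of 0.87 in limma's moderated test. For Old against Young mice the difference was 0.33 (standard error 0.17, interval -0.06 to 0.71, unadjusted p = 0.0886, adjusted p = 0.999 by limma). Neither difference passed the test. Exact permutation of 3 against 3 mice gave p = 0.1 (two-sided) for Old against Young, the smallest value this design allows.

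**Figure D1:**
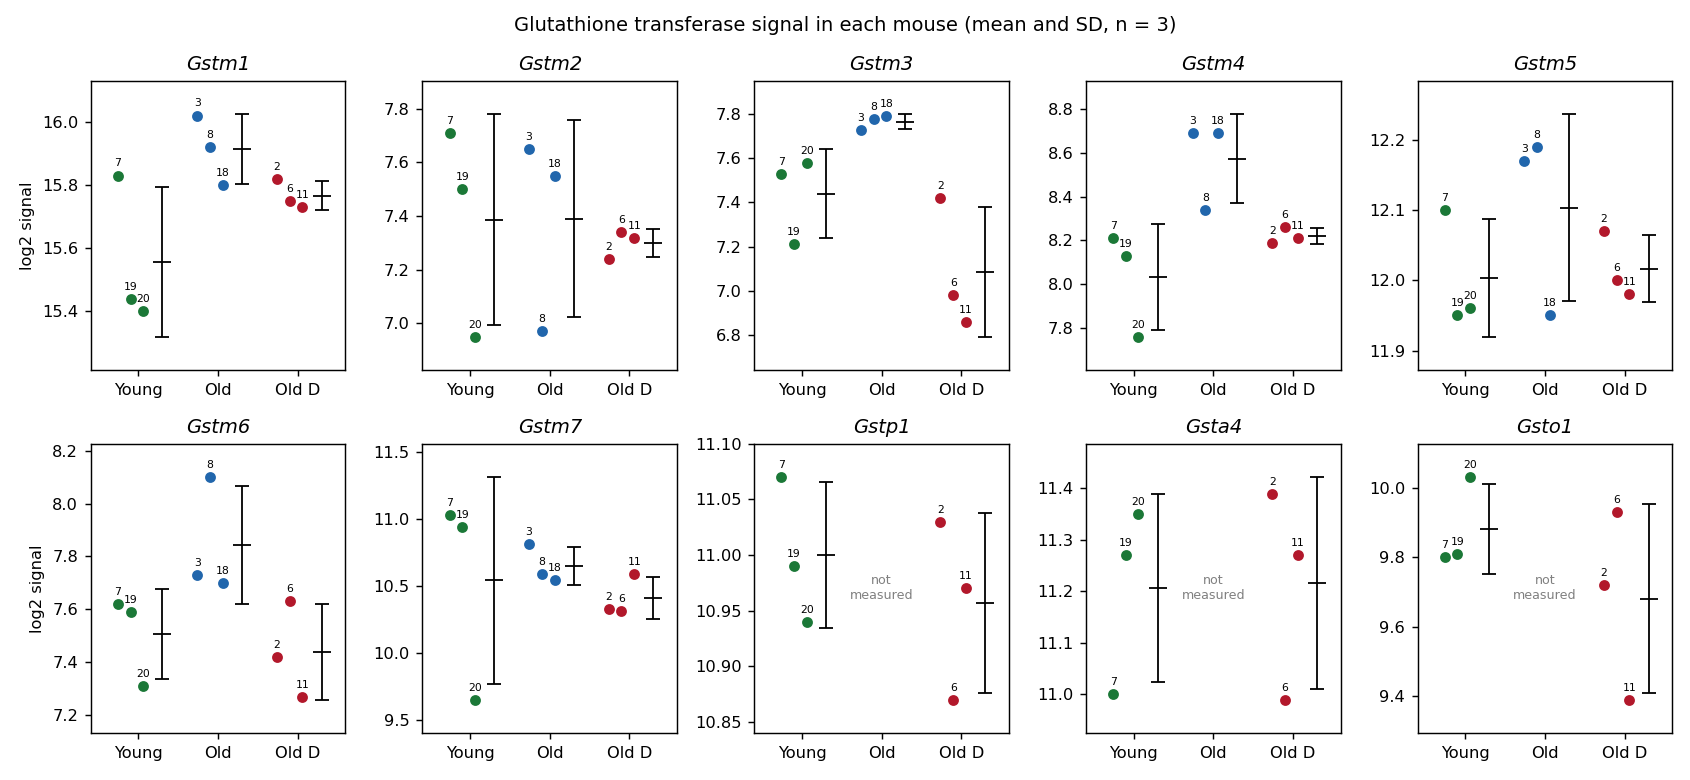
Log2 signal (vertical axes, separate scale per gene) of the 10 glutathione transferases in each mouse (points, numbered by mouse) of the Young, Old and Old D groups, with the mean and SD of 3 mice beside each group. Gstm3 was 7.73 to 7.79 in Old and 6.86 to 7.42 in Old D mice, and Gstp1, Gsta4 and Gsto1 were not measured in Old mice.

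The promoter sequences of Gstm3, Gstm4 and Gstm1, 3 genes of the cluster, are shown. Gstm3 had the largest difference between the adult groups. Gstm4 and Gstm1 had an unadjusted limma p under 0.05 between Old and Young mice, where no member passed the threshold of the study. Each sequence is the stretch of 250 bases before the start of a RefSeq transcript on the minus strand of GRCm38.p6. It is written 5′ to 3′ on the transcribed strand. Capitals mark the GC box, GGGCGG, in Gstm3 and Gstm4. In Gstm1 they mark the TATA box, TATAAA. Both were searched on both strands.
Gstm3, chr3:107969175-107969424: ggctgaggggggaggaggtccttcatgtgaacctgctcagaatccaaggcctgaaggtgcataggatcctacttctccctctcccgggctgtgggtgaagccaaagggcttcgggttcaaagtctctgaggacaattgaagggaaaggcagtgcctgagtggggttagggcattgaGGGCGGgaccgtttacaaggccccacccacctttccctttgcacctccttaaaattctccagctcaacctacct
Gstm4, chr3:108044857-108045106: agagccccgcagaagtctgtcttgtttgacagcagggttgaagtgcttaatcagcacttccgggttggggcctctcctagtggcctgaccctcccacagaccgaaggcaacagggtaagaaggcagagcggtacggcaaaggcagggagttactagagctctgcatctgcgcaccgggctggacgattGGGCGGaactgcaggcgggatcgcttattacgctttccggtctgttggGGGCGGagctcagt
Gstm1, chr3:108017819-108018068: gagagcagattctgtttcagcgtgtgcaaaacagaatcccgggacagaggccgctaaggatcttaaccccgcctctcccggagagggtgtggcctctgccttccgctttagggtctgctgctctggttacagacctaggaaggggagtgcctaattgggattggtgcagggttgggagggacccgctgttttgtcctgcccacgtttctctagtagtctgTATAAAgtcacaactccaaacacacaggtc
Counted in bases from the start site, the GC box began at -74 in Gstm3 and at -62 and -14 in Gstm4, and the TATA box began at -30 in Gstm1. RefSeq windows of 250 bases before and 50 after a start site matched 9 of the 10 members, with 14 windows in all. The core of the antioxidant response element, TGACNNNGC on either strand, was found in 2 of the 14 windows, 1 of Gstm5 and 1 of Gstm7, and in 12.4% of all 32851 mouse windows of this length. TATAAA was present in 3 of the 14 windows against 13.6% of all, and GGGCGG in 8 against 35.7%. Windows of the same gene can overlap, so these 14 are not independent. Those of Gstm4 were 98.0% identical to each other and held the same GC boxes. Those of Gstm7 shared a GC box, which began at -203 and at 0 from their start sites. The windows of different members were 45.3% to 59.8% identical over 85 pairs, and the most alike were those of Gstm3 and of the Gstm1 start shown. Their longest shared run, TGAGAAGACCACAGCA, had 16 bases and lay after the start site in both. Gstm1 had another RefSeq start, whose window held no TATAAA and was 48.3% identical to that of Gstm3. The pair next in identity, at 54.4%, was this Gstm1 window and that of Gstp1 on chromosome 19. Windows of genes outside the set were not aligned, so the identity of unrelated windows is not known here. A match of letters describes the window and is no evidence of binding, and the samples hold no measure of it.

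Gstm4, another mu class enzyme, had its highest signals in Old mice. The log2 signal was 8.69, 8.34 and 8.69 in Old mice 3, 8 and 18, against 8.21, 8.13 and 7.76 in Young mice 7, 19 and 20. In Old D mice 2, 6 and 11 it was 8.19, 8.26 and 8.21. Every Old mouse was above every mouse of both other groups, and the Old D values lay within 0.07 of each other. The Old mean exceeded the Young mean by 0.54 (standard error 0.16, 95% confidence interval 0.18 to 0.90), a signal 1.45-fold higher. The unadjusted limma p was 0.00749, but the fold was below the 1.5 used by the study and the adjusted p was 0.999. Leaving out Young mouse 7, Young mouse 19 or Old mouse 8 gave 0.63, 0.59 and 0.66, each past both limits. Leaving out Young mouse 20, Old mouse 3 or Old mouse 18 gave 0.40, 0.48 and 0.48, each short of the fold limit. Old D was 0.35 below Old (standard error 0.16) and 0.19 above Young (standard error 0.16, interval -0.17 to 0.55, adjusted p = 0.907 by limma).

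Gstm6 followed Gstm3 in the size of the difference of Old D from Old, at 1.32-fold, short of the 1.5-fold limit that Gstm3 passed. Its log2 signal was 7.73, 8.10 and 7.70 in Old mice 3, 8 and 18, and 7.42, 7.63 and 7.27 in Old D mice 2, 6 and 11. Young mice 7, 19 and 20 had 7.62, 7.59 and 7.31. The Old mice did not overlap with either other group, and Old D and Young overlapped widely. Old D differed from Old by -0.40 (standard error 0.17) and from Young by -0.07 (standard error 0.17, 95% confidence interval -0.44 to 0.30, adjusted p = 0.971 by limma). The difference of Old from Young was 0.34 (standard error 0.17, interval -0.03 to 0.71) with an unadjusted limma p of 0.0711.

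Gstm1, the mu class enzyme best known from liver and from astrocytes, had its lowest signals in Young mice. The log2 signal was 15.83, 15.44 and 15.40 in Young mice 7, 19 and 20, and 16.02, 15.92 and 15.80 in Old mice 3, 8 and 18. Old D mice 2, 6 and 11 had 15.82, 15.75 and 15.73. Young mouse 7 lay within the range of the Old mice and above every Old D mouse, and the other 2 Young mice were below all adults. Old exceeded Young by 0.36 (standard error 0.15, 95% confidence interval 0.02 to 0.69), with unadjusted p = 0.0387 before and 0.999 after adjustment in limma. Old D exceeded Young by 0.21 (standard error 0.15, interval -0.12 to 0.54, adjusted p = 0.889 by limma). The difference of Old D from Old was -0.15 (standard error 0.15), with overlapping values.

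Gstm5, a mu class enzyme that is enriched in mouse brain and testis, varied least among mice of the Gstm genes. Its log2 signal was 12.10, 11.95 and 11.96 in Young mice 7, 19 and 20, 12.17, 12.19 and 11.95 in Old mice 3, 8 and 18, and 12.07, 12 and 11.98 in Old D mice 2, 6 and 11. The 3 groups overlapped. Old D differed from Young by 0.01 (standard error 0.13, 95% confidence interval -0.28 to 0.30) and Old from Young by 0.10 (standard error 0.13, interval -0.19 to 0.39). The difference of Old D from Old was -0.09 (standard error 0.13).

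Gstm2 varied widely within the Young and Old groups, and Gstm7 within the Young group. Gstm2, a mu class enzyme, was 7.71, 7.50 and 6.95 in Young mice 7, 19 and 20, 7.65, 6.97 and 7.55 in Old mice 3, 8 and 18, and 7.24, 7.34 and 7.32 in Old D mice 2, 6 and 11. Young mouse 20 and Old mouse 8 were low, and the Old D values fell between the extremes of the other groups. Its differences were -0.09 for Old D from Young (standard error 0.23, 95% confidence interval -0.59 to 0.42), 0.00 for Old from Young (standard error 0.23, interval -0.50 to 0.51) and -0.09 for Old D from Old (standard error 0.23).
Gstm7, a further member of the cluster, was 11.03, 10.94 and 9.65 in Young mice 7, 19 and 20, 10.81, 10.59 and 10.54 in Old mice 3, 8 and 18, and 10.33, 10.31 and 10.59 in Old D mice 2, 6 and 11. Young mouse 20 was below every other mouse, and the SD of the Young group was 0.77 against 0.14 in Old and 0.16 in Old D. Old differed from Young by 0.11 (standard error 0.31, interval -0.59 to 0.80), and by -0.34 without Young mouse 20. The difference of Old D was -0.13 from Young (standard error 0.31, interval -0.82 to 0.56) and -0.24 from Old (standard error 0.31). Without Young mouse 20, Old D differed from Young in Gstm7 by -0.57, with an unadjusted p of 0.00654 and an adjusted p of 0.938 by limma, short of the fold limit.

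The members outside the mu class could be compared between Young and Old D mice only. Gstp1, the pi class enzyme, was 11.07, 10.99 and 10.94 in Young mice 7, 19 and 20, and 11.03, 10.87 and 10.97 in Old D mice 2, 6 and 11, a difference of -0.04 (standard error 0.14, 95% confidence interval -0.35 to 0.27). Gsta4, whose enzyme conjugates the lipid peroxidation product 4-hydroxynonenal, was 11, 11.27 and 11.35 in Young mice and 11.39, 10.99 and 11.27 in Old D mice, a difference of 0.01 (standard error 0.17, interval -0.38 to 0.40). Gsto1, an omega class enzyme with thioltransferase activity, was 9.80, 9.81 and 10.03 in Young mice and 9.72, 9.93 and 9.39 in Old D mice, a difference of -0.20 (standard error 0.18, interval -0.61 to 0.21). The Gsto1 difference was -0.06 without Old D mouse 11 and -0.33 without Old D mouse 6. The groups overlapped for each of these genes. Their adjusted p-values in limma were 0.976, 0.995 and 0.908. Each interval included 0 and changes in either direction.

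Across the family, the Old group had the highest mean for all 7 Gstm genes, by less than 0.01 for Gstm2. The contrast of Old D with Old mice is given as a description. There 1 of the 7 (Gstm3) passed a fold of 1.5 with an unadjusted p under 0.05, the threshold of the study, and 1.54% of all 6291 probe sets did. In the same contrast 3 of the 7 (Gstm3, Gstm4 and Gstm6) had groups that did not overlap, against 11% of all probe sets. All 7 means were lower in Old D, with a median difference of -0.24, whereas the median over all probe sets was 0.01. The members were selected with this contrast known, and nothing is read from these counts.

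In Old D against Young mice, none of the 10 members passed the threshold, where 1.70% of all 22206 probe sets did, and none had groups that did not overlap, where 10.4% of all did. None had an unadjusted p under 0.05 in limma. The differences ranged from -0.35 for Gstm3 to 0.21 for Gstm1, with 4 positive and 6 negative and a median of -0.05 against 0.00 over all probe sets. In Old against Young mice, none of 7 members passed the threshold (background 1.29% of 6291 probe sets), 2 (Gstm1 and Gstm4) had an unadjusted p under 0.05, and 3 (Gstm3, Gstm4 and Gstm6) had groups that did not overlap (background 8.71%). The median difference was 0.33 against -0.01 over all probe sets. No probe set of the array had an adjusted p under 0.05 in any of the 3 comparisons by limma, in which 335, 1267 and 268 probe sets had an unadjusted p under 0.05 for Old D against Old, Old D against Young and Old against Young. Both comparisons with Old rest on the same 3 Old mice, so the values of Old enter each of them. The choice of the set with Old D against Old in view therefore bears on Old against Young as well. The limma and permutation values of Old against Young are no independent test of these genes.

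**Figure D2:**
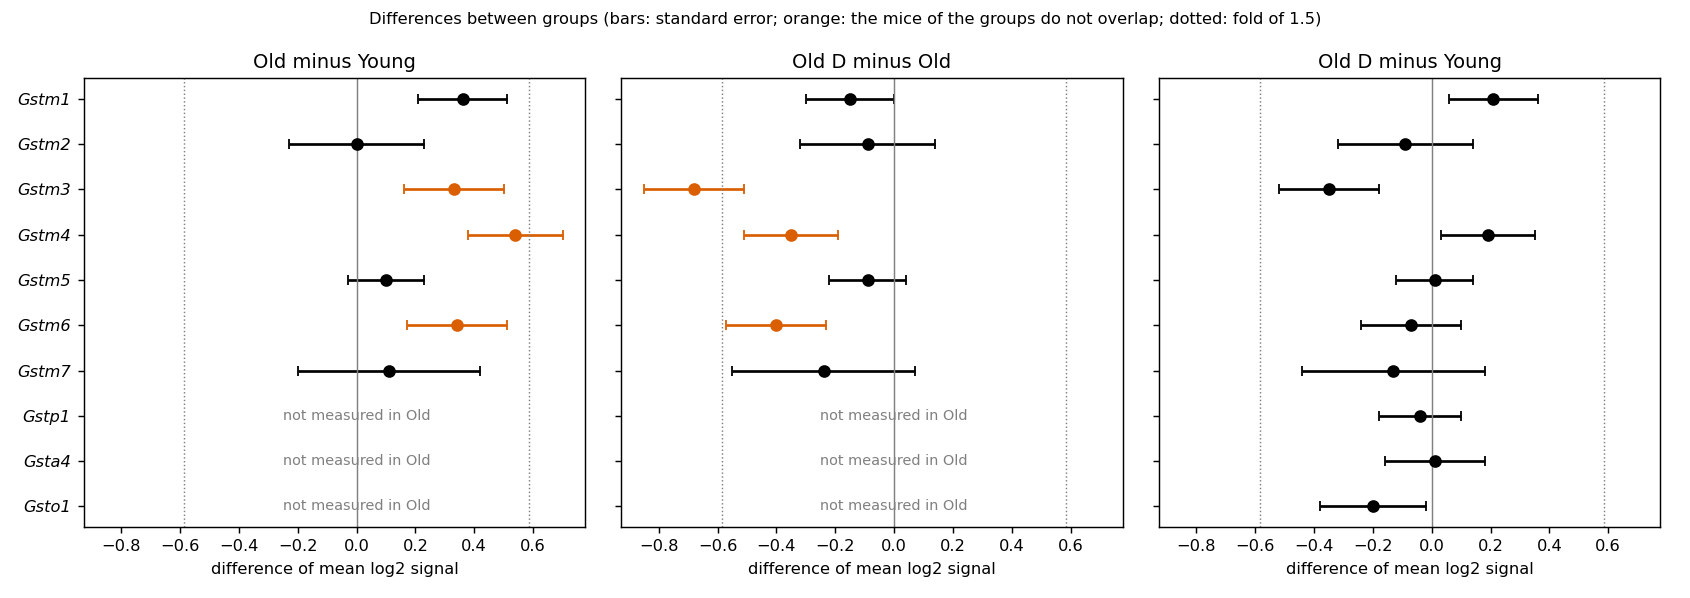
Difference of mean log2 signal (horizontal axes) for each member in the 3 comparisons, with bars for the standard error, orange for genes whose mice do not overlap between the groups and dotted lines at a fold of 1.5. Gstm3 at -0.68 in Old D minus Old is beyond the dotted line, and Gstm4 at 0.54 in Old minus Young is short of it.

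The mice that were low or high differed from gene to gene in the cluster. Young mouse 20 had the lowest signal of all 9 mice for 4 of the 7 Gstm genes (Gstm1, Gstm2, Gstm4 and Gstm7), at -0.35, -0.41, -0.52 and -0.88 from each gene's mean over the mice, and was below the mean for every Gstm gene but Gstm3, for which it was 0.15 above. Old D mouse 11 had the lowest signal for Gstm3 and Gstm6, at -0.57 and -0.33, and was within 0.07 of the mean for the other 5. The smallest SD of the 3 groups was that of Old D for Gstm1, Gstm2, Gstm4 and Gstm5.

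**Figure D3:**
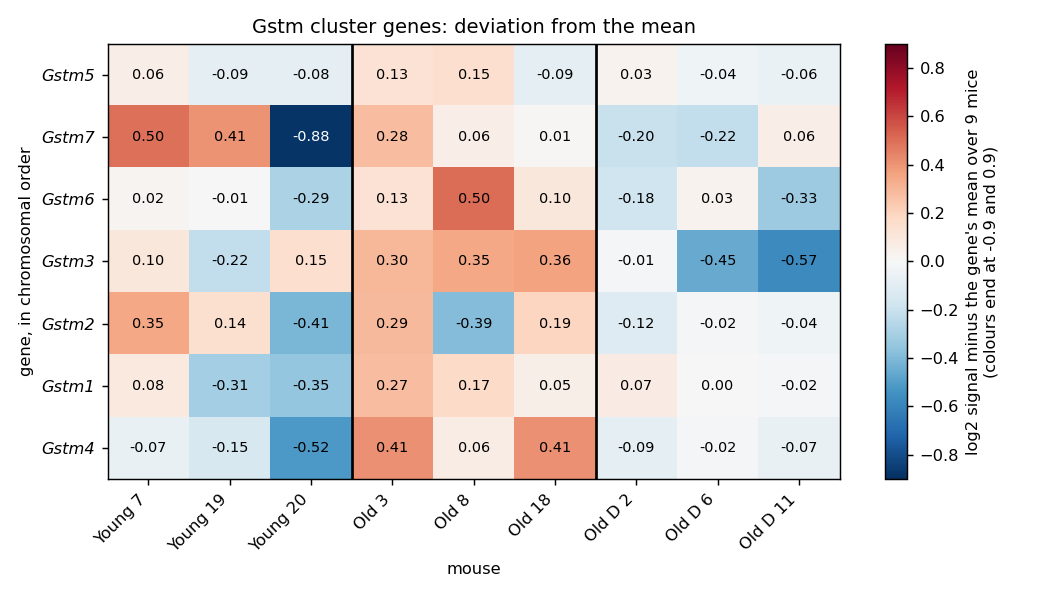
Log2 signal of each Gstm gene minus its mean over the 9 mice (colour and number in each cell), with genes in chromosomal order from top to bottom and mice by group from left to right. Young mouse 20 is low for Gstm7, Gstm4, Gstm2 and Gstm1, and the Gstm3 row is above its mean in all Old mice and below it in all Old D mice.

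Once the group means were removed, Gstm2 and Gstm4 varied together, with a Pearson correlation of 0.99 over the 9 mice. This pair is named because its value was the highest of the 21 pairs of Gstm genes. With the group means left in, the correlation was 0.57 (Spearman 0.45). It was 0.51 without the 2 mice farthest from the median of Gstm2. Young mouse 20 and Old mouse 8 were low for both genes, at -0.44 and -0.42 from the group mean for Gstm2 and -0.27 and -0.23 for Gstm4. Gstm1 and Gstm5 had a correlation of 0.79 within groups and 0.78 over all mice (Spearman 0.83). Gstm3 had within-group correlations of -0.09 and -0.25 with Gstm6 and Gstm2, the genes on either side of it, of -0.27 with Gstm4 and -0.42 with Gstm7, and of 0.27 and 0.32 with Gstm1 and Gstm5. The 21 pairs of Gstm genes ranged from -0.42 to 0.99 within groups and 14 of them were above 0, and over all mice they ranged from -0.01 to 0.78 and 19 were above 0. These correlations describe 9 mice on 1 array each, and related probe sequences may share signal, which was not tested.

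**Figure D4:**
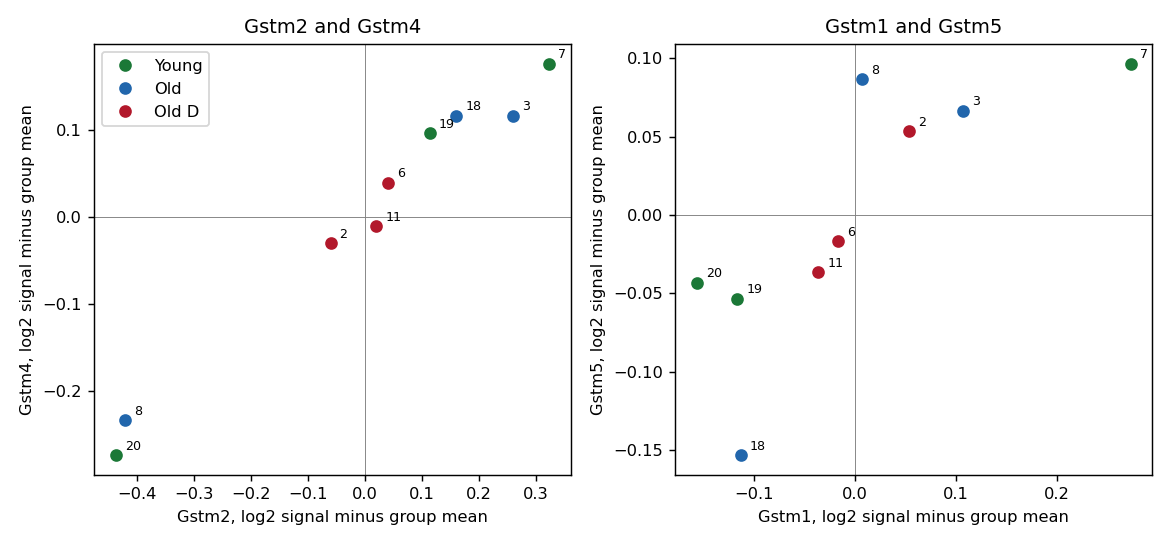
Log2 signal minus the group mean for Gstm2 and Gstm4 (left) and for Gstm1 and Gstm5 (right), with 1 point per mouse, numbered and coloured by group. The Gstm2 and Gstm4 points lie close to 1 line, with mice 20 and 8 at the lower end, and those of Gstm1 and Gstm5 scatter more widely.

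Among 18 other glutathione transferases and related enzymes measured in Young and Old D mice, Gstt1 alone passed the threshold of the study. Of all 22206 probe sets 1.70% did. The groups did not overlap for 3 of the 18, against 10.4% of all probe sets. Gstt1, a theta class enzyme, was 5.17, 5.83 and 5.66 in Young mice 7, 19 and 20 and 6.06, 6.40 and 6.46 in Old D mice 2, 6 and 11. All Old D mice were above all Young mice, with a difference of 0.75 (standard error 0.21, 95% confidence interval 0.28 to 1.23, unadjusted p = 0.00645, adjusted p = 0.86 by limma), or 1.69-fold. Without Young mouse 7 the difference was 0.56 and no longer passed, and a filter on a mean log2 signal of at least 6 left Gstt1 out. Gstk1, the kappa class enzyme of mitochondria and peroxisomes, was 8.85, 8.73 and 8.76 in Young mice and 8.54, 7.95 and 8.15 in Old D mice. The groups did not overlap, and the difference of -0.57 (standard error 0.18, unadjusted p = 0.0127, adjusted p = 0.86 by limma) was short of the fold limit. It passed without Young mouse 19, at -0.59, and without Old D mouse 2, at -0.73, and it was -0.44 without Old D mouse 6. Without both mice with high choroid plexus genes the Gstk1 difference was -0.56 with an unadjusted p of 0.0581 by limma. Hpgds, the prostaglandin D synthase of the sigma class, is named after its values were seen. It was 8.36, 8.43 and 8.20 in Young and 8.49, 9.01 and 8.79 in Old D mice, a difference of 0.43 (standard error 0.17, unadjusted p = 0.036, adjusted p = 0.86 by limma), short of the fold limit. The median of the 18 differences was -0.03, with 8 positive and 10 negative.
In the adult groups 5 of these genes were measured and none passed. Of all 6291 probe sets, 1.54% did in Old D against Old and 1.29% in Old against Young. Gsta3, an alpha class enzyme, was 5.86, 6.60 and 6.26 in Old and 5.87, 5.13 and 5.96 in Young mice, a difference of 0.59 (standard error 0.28, unadjusted p = 0.0617 by limma). The Old D values of Gsta3 were 6.20, 5.42 and 5.84, which overlapped with both groups. Mgst2, a microsomal enzyme, and Ptges, a prostaglandin E synthase of the same family, differed between groups by -0.21 to 0.25.

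The genes that make, recycle and use glutathione did not pass the threshold in any comparison, with 27 measured in Young and Old D mice and 10 in all groups. Of all probe sets, 1.70% passed in Old D against Young, 1.54% in Old D against Old and 1.29% in Old against Young. The groups did not overlap for 4 of 27, 3 of 10 and 1 of 10 genes in these comparisons, against 10.4%, 11% and 8.71% of all probe sets. The differences of Old D from Young ranged from -0.88 to 0.34, none with an unadjusted p under 0.05 by limma. The median difference was 0.00 for Old D against Young, -0.01 for Old D against Old and 0.03 for Old against Young. Gclm, the modifier subunit of glutamate-cysteine ligase, which makes the first bond of glutathione, was 11.79, 11.67 and 11.78 in Old D mice 2, 6 and 11. It was 11.38, 11.61 and 11.30 in Young mice and 11.22, 11.58 and 11.63 in Old mice, all below the Old D mice. Old D exceeded Young in Gclm by 0.32 (standard error 0.15, unadjusted p = 0.067, adjusted p = 0.87 by limma) and Old by 0.27 (standard error 0.15). Slc7a11, which imports cystine for glutathione synthesis, was 11.95, 11.82 and 12.06 in Old mice 3, 8 and 18, above 11.52, 11.72 and 11.74 in Young and 11.72, 11.78 and 11.30 in Old D mice. Its difference was 0.28 for Old from Young (standard error 0.16, unadjusted p = 0.11 by limma) and -0.34 for Old D from Old (standard error 0.16). Chac2, which breaks glutathione down, was 7.77, 7.61 and 7.44 in Young and 8.11, 7.80 and 7.94 in Old D mice, a difference of 0.34 (standard error 0.16, unadjusted p = 0.0607 by limma). The related Chac1 differed by -0.16 to 0.06 between groups.

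No gene of the Nrf2 pathway passed the threshold either, among 19 measured in Young and Old D mice and 8 in all groups. Of all probe sets, 1.70% passed in Old D against Young, 1.54% in Old D against Old and 1.29% in Old against Young. The groups did not overlap for 1 of 19, 1 of 8 and 0 of 8 genes in these comparisons, against 10.4%, 11% and 8.71% of all probe sets. Nfe2l2, which encodes Nrf2, was 4.90, 5.02 and 5.13 in Young, 5.06, 4.77 and 5.25 in Old and 4.75, 4.65 and 5.11 in Old D mice. The 3 groups overlapped, and Old D differed from Young by -0.18 (standard error 0.17, unadjusted p = 0.326 by limma). Txn1, thioredoxin, was 13.08, 12.97 and 13.15 in Old D mice, below 13.16, 13.19 and 13.42 in Young and 13.25, 13.21 and 13.34 in Old mice. Old D differed from Young in Txn1 by -0.19 (standard error 0.13, unadjusted p = 0.183 by limma) and from Old by -0.20 (standard error 0.13). Prdx1, a peroxiredoxin that removes hydrogen peroxide, was 14.17, 14.28 and 13.13 in Young mice 7, 19 and 20 and 13.90 to 14.32 in the adult mice. Young mouse 20 was the lowest of the 9 mice for Prdx1, as it was for 4 Gstm genes. Maff, a small Maf partner of Nrf2, differed between Old D and Young by 0.35 (standard error 0.25, unadjusted p = 0.196 by limma), with its highest value in Old D mouse 11. Sod3, the extracellular superoxide dismutase, was 6.61 in Young mouse 19 and 7.02 in Old D mouse 11 and 5.64 to 5.93 in the other mice, so the mice with high choroid plexus genes were also high for Sod3.

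Since mu class enzymes are mainly glial in the brain, the summed levels of glial and neuronal markers (log2 of the added signals) were set beside them. The 12 astrocyte markers summed to 18.56 to 18.61 in Young and 18.66 to 18.72 in Old D mice. The 2 measured in all groups (Slc1a2 and Fgfr3) summed to 16.77 to 17.08 in Young, 16.97 to 17.06 in Old and 16.91 to 17.11 in Old D mice, with full overlap of the adult groups. The 4 oligodendrocyte markers measured in all groups (Mal, Ermn, Cldn11 and Ugt8a) summed to 15.26 to 15.89 in Young, 15.14 to 15.35 in Old and 15.20 to 15.63 in Old D mice. In Old against Young mice all 4 had a lower mean, with a median difference of -0.46, and 3 had an unadjusted p under 0.05 by limma. Of the 4, 1 passed the threshold, downward, where 1.29% of all 6291 probe sets passed it in either direction. The 4 microglial markers summed to 12.95 to 13.44, 13.09 to 13.21 and 13.16 to 13.26. In Old against Young mice 3 of the 4 had a higher and 1 a lower mean, with a median difference of 0.29. The groups did not overlap for 2 of them, against 8.71% of all probe sets, and 1 had an unadjusted p under 0.05 by limma. In Old D against Old mice the median difference was 0.04. The 2 endothelial markers summed to 8.49 to 8.65, 8.44 to 8.67 and 8.43 to 8.66, and the 1 meningeal fibroblast marker (Col3a1) was 3.82 to 4.31, 3.60 to 3.88 and 3.45 to 4.07. Col3a1 was thus low in every mouse. All 7 meningeal fibroblast markers summed to 11.90 to 14.60 in Young and 13.21 to 14.58 in Old D mice. Of the 7, 3 had a higher and 4 a lower mean in Old D than in Young. Upward, 1 of them passed the threshold, where 1.70% of all probe sets passed in either direction. Markers of hippocampal neurons were present in every mouse: the 4 dentate granule cell markers summed to 12.83 to 13.69, 12.79 to 13.75 and 12.67 to 12.86 and the 3 pyramidal cell markers to 11.95 to 12.46, 11.88 to 12 and 12.04 to 12.13, in Young, Old and Old D mice. All 4 dentate markers had a higher mean in Old than in Young (median difference 0.28) and a lower mean in Old D than in Old mice (median difference -0.36). None passed the threshold, where 1.29% and 1.54% of all probe sets did. The 2 choroid plexus markers measured in all groups (Kl and Kcnj13) summed to 9.01 to 15.04 in Young, 8.34 to 10.81 in Old and 8.22 to 14.89 in Old D mice. The 10 thalamus markers summed to 12.64 to 13.29 in Young and 12.53 to 16.30 in Old D mice. The part of cell composition in the member differences was not tested.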

How the data were processed

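Whole-transcript array values of 9 hippocampi were used as log2 signals as deposited by the authors, who processed the scans with the Transcriptome Analysis Console. The sources used here name no background correction, probe summary or genome build. Values of the Old columns with more than 2 decimals (71.7% of probe sets) lay within 5.0e-10 of a straight line from row 6292 on and were set to missing. Of 22206 probe sets, 19572 had 1 gene symbol, 0 several and 2634 none, and each member had 1 probe set, so choosing the highest mean changed nothing. Differences were tested with limma 3.58.1 in R 4.3.3 (3 groups in 1 fit, moderated with 4.22 prior degrees of freedom), with Benjamini-Hochberg adjustment over all probe sets. A probe set was called at a fold of 1.5 and an unadjusted p under 0.05, the limits named in the study's methods. The fit was tested on simulated data. Nothing states whether RNA was extracted in batches, and with 3 arrays per group the number of mice limits precision. Figures used matplotlib 3.10.9. The members and the 12 gene lists (3 pathway and 9 marker lists, 143 of 151 entries matched) were chosen with earlier results of these data known. Apart from Hpgds, which was named after its values were seen, named genes were all members, the list genes past the threshold or with the 2 smallest p-values of a comparison, Ttr, Rgs16 and the 3 genes most like Gstm1. The 19 alternatives covered the samples in the fit, moderation, test, normalization, low-value filter, probe set choice, fold limit and left-out mice. Gene order and promoter windows are from RefSeq tables of GRCm38.p6.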

Additional observations from a re-analysis of the deposited data

How the results depend on the processing

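Of 432 values of members under 18 alternatives (dropping the fold limit bears on counts alone), 409 kept their direction and their side of the threshold, 2 lost it, 4 gained it and 17 changed sign. The counts for Old D against Old mice are a description, since the members were selected with this contrast known. There the count past the threshold was 1 (Gstm3) and became 2 with no fold limit (Gstm3 and Gstm6). Leaving out 1 mouse gave 0 to 1, with 0 without Old D mouse 11, and leaving out both Young mouse 19 and Old D mouse 11, which was added once the data had been seen, gave 0. The Gstm3 difference ranged from -0.85 to -0.57 when a mouse was left out. In Old against Young mice the count was 0 and became 2 with no fold limit (Gstm1 and Gstm4), 0 to 1 with a mouse left out, and 1 (Gstm4, 0.59) without both Young mouse 19 and Old D mouse 11. It stayed 0 for Old D against Young mice under every alternative run. The unadjusted p of Gstm4 for Old against Young was 0.00387 to 0.0407 over the alternatives and the adjusted p 0.943 to 1. The unadjusted p of Gstm1 in this comparison was 0.00688 to 0.135. Old against Young uses the Old mice whose values were in view when the set was chosen, so these ranges are descriptions.

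The changes of sign were of small differences. With a mouse left out, Old D against Old ranged from -0.30 to 0.04 for Gstm2. Old D against Young ranged from -0.30 to 0.08 for Gstm2, -0.57 to 0.12 for Gstm7, -0.09 to 0.12 for Gsta4, -0.01 to 0.06 for Gstm5 and -0.16 to 0.02 for Gstm6, which was 0.06 without both mice 19 and 11. Old against Young ranged from -0.21 to 0.21 for Gstm2 and -0.34 to 0.35 for Gstm7, and Gstm2 was -0.01 after quantile normalization. The cause was not tested beyond the mice left out. No paired analysis was possible because the groups share no mouse number.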

Other observations

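The 3 genes with the signal most like that of Gstm1 over the 9 mice, of 5613 genes measured in all of them, were Mroh2a (Pearson 0.96, Spearman 0.92), Myl9 (0.94 and 0.90) and Tmem248 (0.92 and 0.88). Myl9 encodes a myosin light chain of smooth muscle. Their mean log2 signals in Young, Old and Old D mice were 4.33, 4.61 and 4.47 for Mroh2a, 7.52, 7.74 and 7.66 for Myl9 and 9.27, 9.49 and 9.44 for Tmem248. They were picked as the highest of many correlations and are given as a description.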
